A study of Drosophila melanogaster with 3 samples.

Results

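Some of the RNA positions at which Aubergine (Aub) was mapped carry the names of 2 or more genes. They are described here from 3 iCLIP libraries of cultured Drosophila melanogaster germline stem cells. An interval was counted when its chromosome, start, end and strand stood in the same library's list with at least 2 different gene IDs. Counted once per library, 458 of 51495 intervals met this rule, 21 of 3986 in replicate 1, 327 of 35824 in replicate 2 and 110 of 11685 in replicate 3. They joined 227 genes into 129 gene pairs, which lie on 1 strand because the rule asks for it.

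In iCLIP, living cells are irradiated with ultraviolet light, here 150 mJ/cm2 at 254 nm, which bonds a protein to its RNA, and the RNA purified with the protein is sequenced. All libraries came from 1 genotype and no drug was given. The cells carried a UASp-GFP-aub transgene over a wild-type chromosome, the nos-gal4 driver, which acts in the germline, the bam∆86 deletion on both homologues and an hs-bam transgene, in which a heat-shock promoter drives bam. The tagged Aub was thus a driven transgene product, and the cells were a cultured line without endogenous bam function. Whether each library was a culture of its own is not stated in the labels, and the spread among replicates may be technical. No control library and no library of another genotype was analysed here.

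In the fly germline Aub belongs to the Piwi proteins. Guided by piRNAs, which are short RNAs, it cleaves transposon transcripts, and it also contacts messenger RNAs. The Drosophila genome is compact, and neighbouring genes on a strand can overlap at their ends, lie inside each other or share a transcript that encodes more than 1 protein. A read that maps to such a stretch can come from the RNA of either gene. An interval with 2 gene IDs therefore locates the contact on the strand without telling which transcript was bound.

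The deposited lists hold positions with neither heights nor p-values, so the depth in reads is unknown. The files give FlyBase IDs without symbols. RefSeq gene names for assembly Release 6 gave a symbol for 6 of the 227 genes (2.64%), and the other genes are called by ID. All positions are on build dm3 and 1-based. None of the members of 5 gene lists, for the piRNA pathway, germline stem cells and differentiation, translation initiation, germline markers and somatic gonad markers, could be matched to an ID, so the labelled cell type could not be checked against its markers.

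Intervals with 2 or more genes made up 0.527% of replicate 1 (95% Wilson interval 0.345 to 0.804), 0.913% of replicate 2 (0.819 to 1.02) and 0.941% of replicate 3 (0.782 to 1.13). The mean was 0.794% ± 0.232 (SD, n = 3). The intervals of replicates 2 and 3 overlapped, and that of replicate 1 lay below that of replicate 2. These confidence limits reflect counting error alone and take the calls to be independent. By covered length the shares were 0.582%, 0.889% and 1.01%. Of the genes bound in a library, meaning those with at least 1 called interval, 1.64%, 3.05% and 3.47% had such an interval in replicates 1, 2 and 3.

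The pair with the most shared intervals included CG42353, a protein-coding gene of X. CG42353 (FBgn0259699) and FBgn0259700 held the same 3 intervals in replicate 1, the same 18 in replicate 2 and the same 8 in replicate 3. Neither gene had an interval of its own in any library, and replicate 2, the library with most intervals, also held most of theirs. The pair's share was 0.065% ± 0.013 of a library's intervals (SD, n = 3). All 29 intervals lay on the minus strand of X between 15987141 and 15998932. In the Release 6 table CG42354 is the only gene whose extent overlaps that of CG42353, but the table does not list FBgn0259700.

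A further 5 pairs had a shared interval in every library. FBgn0033802 and FBgn0053182, on the minus strand of 2R, shared 4, 18 and 1 intervals in replicates 1, 2 and 3. These were all of the 23 intervals of FBgn0033802, whereas FBgn0053182 had 40 in total. FBgn0035357 and FBgn0250911, on the plus strand of 3L, shared 3, 8 and 2 intervals, which were all 13 of FBgn0250911 and 13 of the 17 of FBgn0035357. FBgn0001223 and FBgn0001228, on the plus strand of 3L between 9367193 and 9368064, shared 1, 6 and 2 intervals and had no others. FBgn0026063 and FBgn0026064, on the minus strand of 3R between 7172044 and 7176323, shared 1, 2 and 1 intervals and had no others. CG17159 (FBgn0039945) and FBgn0039944, on the minus strand of the heterochromatic scaffold XHet, shared 2, 1 and 4. In replicate 1 each shared interval was worth 0.0251% of the library, so single intervals set the pairs' shares there.

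**Figure D1:**
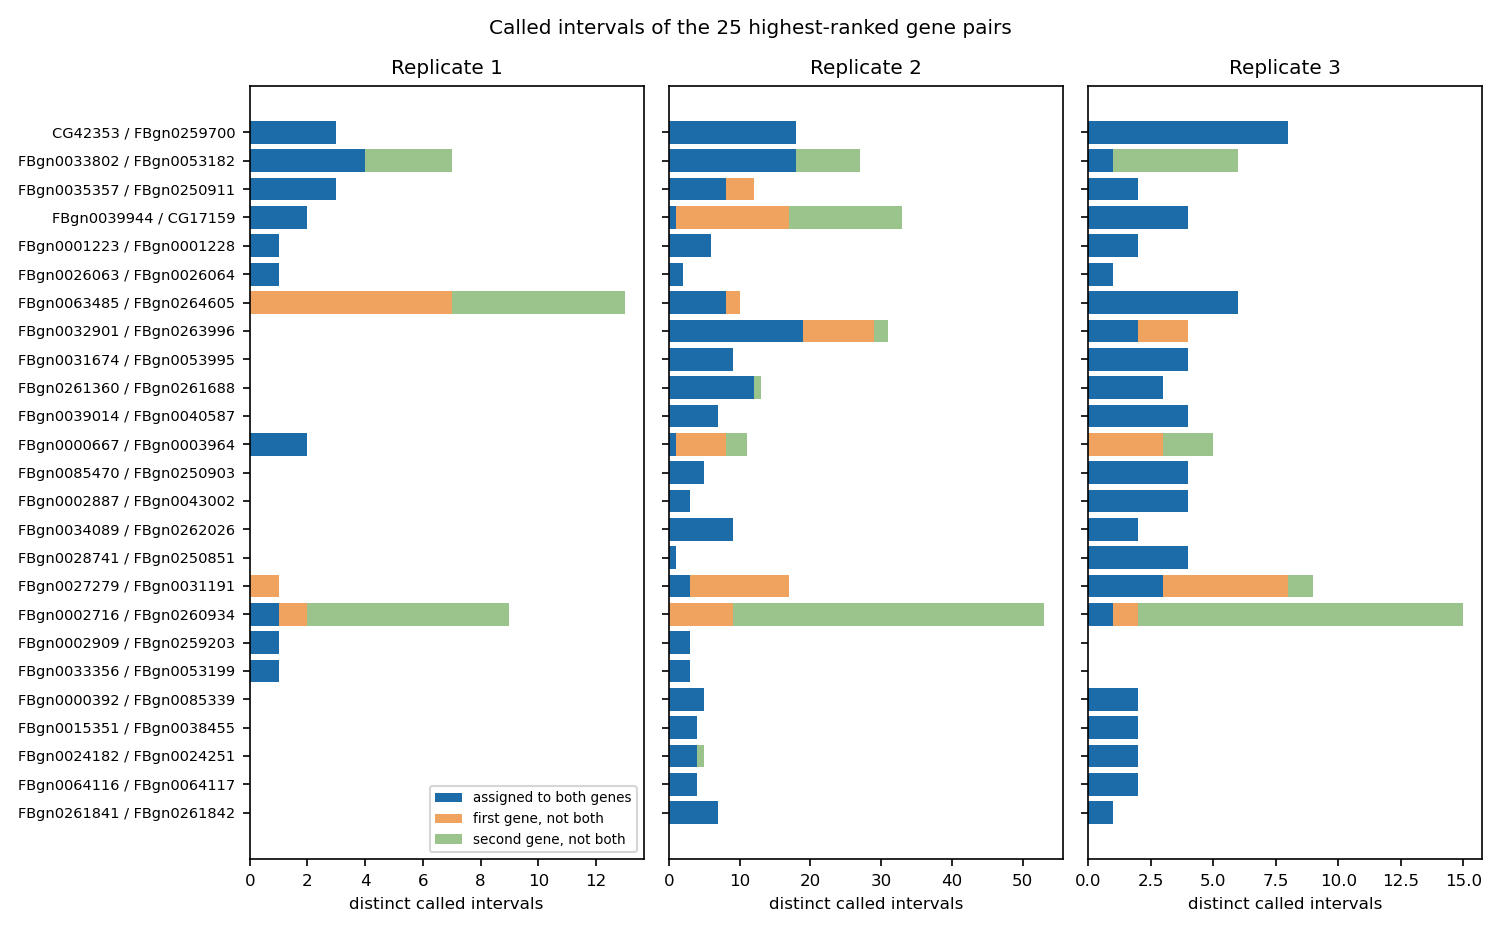
Distinct called intervals (horizontal axis, scaled separately for each replicate) of the 25 highest-ranked gene pairs, ranked by the number of libraries with a shared interval and then by mean share. Blue is intervals assigned to both genes, orange and green are intervals of the first or second gene that are not assigned to both. CG42353 and FBgn0259700 are blue throughout, and FBgn0039944 and CG17159 are nearly all orange and green in replicate 2 alone.

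Pairs recurred across libraries mainly through replicates 2 and 3. Of the 129 pairs, 6 had a shared interval in all 3 libraries, 35 in replicates 2 and 3, 5 in replicates 1 and 2 and 1 in replicates 1 and 3. The other 82 were seen in 1 library, 59 in replicate 2 and 23 in replicate 3. All 12 pairs of replicate 1 were found again in another library, as were 46 of the 105 of replicate 2 and 42 of the 65 of replicate 3. The 47 recurring pairs had a median of 5 shared intervals (range 2 to 29), against a median of 1 (range 1 to 10) for the 82 others. A pair with more shared intervals has more occasions to be seen, so this difference was not tested. With each library left out, the number of pairs common to both remaining libraries was 41 without replicate 1, 7 without replicate 2 and 11 without replicate 3.

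Absence from the smaller libraries mostly went with absence of both genes, which is partly built in. Of all 6502 bound genes, 1459, 6364 and 3310 had an interval in replicates 1, 2 and 3. In the 76 pairs whose genes had identical intervals, a library without a shared interval can hold none of either gene. Of the 117 pairs without a shared interval in replicate 1, 102 had no interval of either gene there. In replicate 3 this held for 54 of 64. In replicate 2 it was the reverse. Of the 24 pairs without a shared interval there, 20 had an interval of at least 1 of the genes at the stretch they shared elsewhere. Such intervals did not always lie wholly inside the stretch. Several of the 24 pairs came from 1 interval of 5 genes in replicate 3, so 1 place counts many times. Replicate 2 thus held calls at these stretches without an interval that carried both gene IDs.

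The positions of the shared intervals were compared with those of other intervals for recurrence. Within 10 nt on the same strand, 13 of the 21 in replicate 1 had an interval of another library (61.9%, 95% Wilson interval 40.9 to 79.2), against 62.9% of all distinct intervals of that library. In replicate 2 the share was 60 of 327 (18.3%, 14.5 to 22.9) against 21.0% of all, and in replicate 3 it was 50 of 110 (45.5%, 36.5 to 54.8) against 47.7%. The difference from intervals of 1 gene was -0.996, -2.68 and -2.27 percentage points in replicates 1, 2 and 3, with a mean of -1.98 ± 0.88 (SD, n = 3). It was below 0 in 3 of 3 libraries, and an exact two-sided sign-flip permutation test gave p = 0.25, the smallest p that 3 libraries allow. Each library's interval for the shared positions covered the value of its other intervals, so no difference was detectable within 10 nt at this number of intervals. The size of the difference depended on the distance and the libraries. Within 50 nt it was -7.23 ± 2.52 points (SD, n = 3), again below 0 in 3 of 3 libraries with an exact permutation p of 0.25. Without replicate 2 it was -11.3 points within 10 nt, over 2 libraries. Among intervals of 1 gene that belonged to the same genes, 9 of 11, 37 of 219 and 61 of 137 recurred in replicates 1, 2 and 3 (81.8%, 16.9% and 44.5%).

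**Figure D2:**
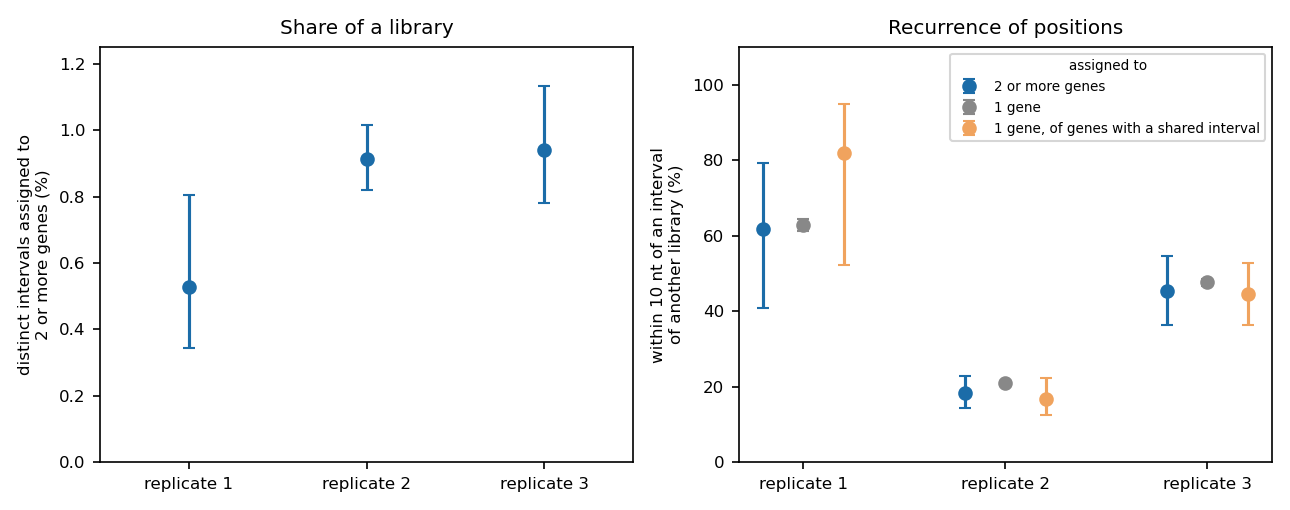
Left, the percentage of each library's distinct intervals assigned to 2 or more genes. Right, the percentage of intervals within 10 nt of an interval of another library on the same strand, for intervals of 2 or more genes (blue), of 1 gene (grey) and of 1 gene among genes with a shared interval (orange). Points are library values and bars are 95% Wilson intervals. The blue bars cover the grey points in all 3 libraries.

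Joined within 10 nt over the libraries, the 458 intervals formed 336 sites. Only shared intervals were joined, so a call of 1 gene in another library did not count. No such share is given here for intervals of 1 gene, and the counts are a description only. Of the sites, 40 held shared intervals of 2 or more libraries and 3 of all libraries. The first of these 3 ran from 2641794 to 2641917 on the plus strand of 3L in FBgn0035357 and FBgn0250911, with 1 interval per library. Another ran from 9367900 to 9368064 on the plus strand of 3L in FBgn0001223 and FBgn0001228, with 1, 4 and 2 intervals in replicates 1, 2 and 3. The remaining site, from 15987270 to 15987337 on the minus strand of X, belonged to CG42353 and FBgn0259700 and held 1, 2 and 1. On 3L, FBgn0063485 and FBgn0264605 had 5 sites between 16704207 and 16704718 on the minus strand that replicates 2 and 3 had in common.

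The next question was how the bound spans of paired genes lie to each other. The bound span of a gene runs from its first to its last called base over all libraries, and it can be much shorter than the gene. Both spans were equal in 79 of 129 pairs (61.2%, 95% Wilson interval 52.6 to 69.2), 1 lay inside the other in 33 (25.6%, 18.8 to 33.7), and the spans were staggered, each with an end of its own, in 17 (13.2%, 8.39 to 20.1). Pairs are not independent, since 2 groups of 4 genes and 1 group of 5 genes gave several pairs each and the other 107 groups had 2 genes.

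Equal spans mostly meant that the 2 genes could not be told apart at all. In 76 of the 79 pairs both genes had exactly the same intervals in every library. For 21 of the 79 this rested on 1 interval in all, which makes the spans equal by construction. The 58 pairs with 2 or more shared intervals had a median span of 1221 nt (range 25 to 47536), and 55 of them had identical sets. Dpm2 (FBgn0259933), which encodes a subunit of the dolichol-phosphate mannose synthase that supplies mannose for protein glycosylation, belongs here. All 10 of its intervals, in replicate 2 alone, were also assigned to FBgn0035436, between 3319719 and 3322473 on the plus strand of 3L. In the Release 6 table the extents of CG12016 and Strip overlap that of Dpm2. CG42363 shared its 1 interval in each of replicates 2 and 3 with FBgn0259708, and CG42496 shared its only interval, 6 nt in replicate 2, with FBgn0050290.

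Among pairs of replicates 2 and 3 with no interval in replicate 1, FBgn0031674 and FBgn0053995 on 2L shared 9 and 4 intervals within 1730 nt. FBgn0039014 and FBgn0040587 on 3R shared 7 and 4, and FBgn0085470 and FBgn0250903 on 2L shared 5 and 4. FBgn0034089 and FBgn0262026 on 2R shared 9 and 2. FBgn0002887 and FBgn0043002 on 2L shared 3 and 4, and FBgn0028741 and FBgn0250851 on 2R shared 1 and 4. These last 2 pairs had more shared intervals in replicate 3 than in replicate 2, although replicate 2 was the larger library. None of the genes in these 6 pairs had an interval of its own. The same held for 6 further pairs of the 25 ranked first, which shared 4 to 8 intervals in all. They were FBgn0000392 with FBgn0085339, FBgn0015351 with FBgn0038455, FBgn0064116 with FBgn0064117, FBgn0261841 with FBgn0261842 and, in replicates 1 and 2, FBgn0002909 with FBgn0259203 and FBgn0033356 with FBgn0053199.

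The remaining 3 pairs with equal spans did not have identical sets. FBgn0032901 and FBgn0263996, on the minus strand of 2L, shared 19 and 2 intervals in replicates 2 and 3 over the longest equal span, 47536 nt. FBgn0032901 had 33 intervals and FBgn0263996 had 23, of which 21 were common to both. FBgn0261360 and FBgn0261688 on 3L shared 15 intervals over 13459 nt, and FBgn0261688 had 1 more. CG42306 (FBgn0259202) and FBgn0034372 on 2R had 4 intervals each in replicate 2, of which 3 were shared.

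In the 33 nested pairs the inner span had a median of 924 nt (range 2 to 31905) and the outer span a median of 8375 nt (range 49 to 91083). The inner span covered a median of 19.4% of the outer. Every interval of the inner gene was shared with the outer gene in 14 of the 33. In the other 19 the inner gene also had calls without an identical call of the outer gene. The outer gene could still have an overlapping call with other edges, as in 15 cases for CG17159 in FBgn0039944. Calls of the inner gene that were not shared with the outer one can belong to a further gene. FBgn0261841, nested in FBgn0261839, shared all its calls with FBgn0261842. The inner and outer spans began at the same 5′ base in 16 pairs, ended at the same 3′ base in 9 and had no edge in common in 8. The middle of the inner span lay in the 5′ part of the outer span, before its midpoint, in 23 of 33 pairs and after it in 10. Because 5 inner genes had a single interval, some of these spans are no wider than 1 call.

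Individual nested pairs showed both arrangements. The span of FBgn0033802 (3952 nt) ended with that of FBgn0053182 (22178 nt) at the 3′ side, at position 9063654 of 2R. FBgn0024182 had all 6 of its intervals, 4 in replicate 2 and 2 in replicate 3, at the 3′ end of FBgn0024251 on X. FBgn0036389 had all 5 of its intervals at the 3′ end of FBgn0263232 on 3L. At the 5′ side, FBgn0264501 held 7 intervals in the first 924 nt of the 15498-nt span of FBgn0000253 on 2R, and 6 of them were shared. FBgn0002652 had 2 intervals, both shared, in the first 113 nt of the 19699-nt span of FBgn0261278 on 2L. FBgn0003964, on X, lay within 3309 nt near the 5′ end of FBgn0000667 (17095 nt), and the 2 genes shared 2, 1 and 0 of their intervals in replicates 1, 2 and 3.

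**Figure D3:**
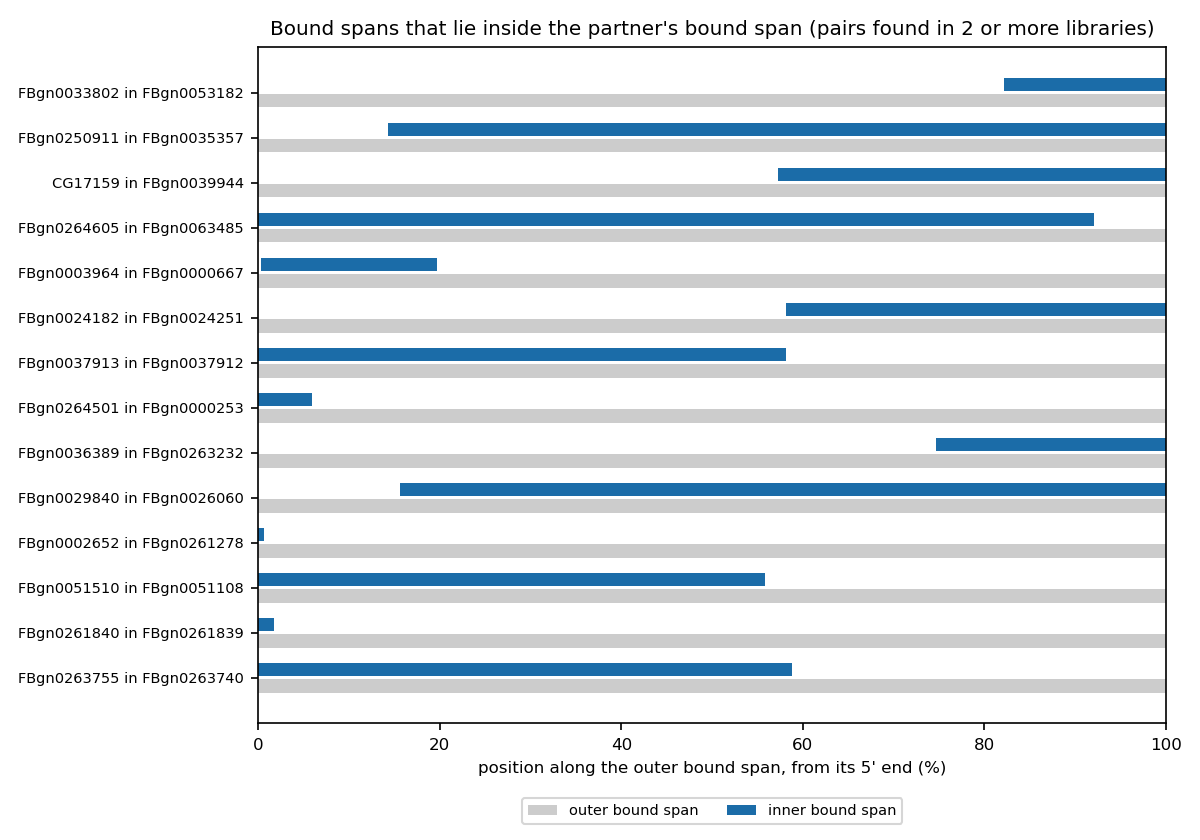
Bound spans of the 14 nested pairs with a shared interval in 2 or more libraries, as a percentage of the outer span from its 5′ end (horizontal axis). Grey bars are the outer gene's bound span, and blue bars are the inner gene's, drawn at least 0.6% wide. Inner spans reach the 5′ or the 3′ end of the outer span, except those of FBgn0264605 and FBgn0003964, which reach neither. FBgn0002652 and FBgn0261840 take up less than 2% of their outer spans.

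Staggered pairs shared least, which is partly built in, since each gene must have a call without an identical call of the other. Of the 17 pairs, 13 had a shared interval in replicate 3 alone. From intervals of 2 genes came 12 of the 17, and the rest came from 1 interval of 5 genes in replicate 3. A median of 10% of the intervals of either gene were common (range 2.04 to 25), against 22.2% in nested pairs (2.94 to 85.7). FBgn0031191 and FBgn0027279, on the plus strand of X, met over 213 nt, from 21889042 to 21889254, where the span of FBgn0031191 ended and that of FBgn0027279 began. They shared 3 intervals in each of replicates 2 and 3 and had 1 and 20 others. In 7 of the 17 pairs the spans overlapped by at least 98% of the shorter one, and 1 to 266 nt of the shorter span lay outside the other. One such pair was FBgn0002716 and FBgn0260934 on 2R, whose 5′ edges lay 1 base apart.

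Intervals with more than 2 genes were rare, 3 in replicate 2 and 1 in replicate 3. FBgn0259730, FBgn0259731, FBgn0259732 and FBgn0259733 shared the only 2 intervals that any of them had, at 9639222 to 9639243 and 9640300 to 9640324 on the plus strand of 3R. FBgn0085350, FBgn0085351, FBgn0259918 and FBgn0260812 shared their only interval, at 11620513 to 11620537 on the minus strand of X. In replicate 3, 5 genes from FBgn0261839 to FBgn0261843 shared the interval from 17191378 to 17191394 on the plus strand of 3R. In replicate 2 the same place was called with other edges for different genes, among them 17191367 to 17191402 for FBgn0261841 and FBgn0261842. That pair shared 7 intervals in replicate 2, all within 146 nt.

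Calls of 2 genes at the same place did not always have the same edges. Besides the identical intervals there were 10, 169 and 16 cases in replicates 1, 2 and 3 in which intervals of different genes overlapped on a strand by at least 1 nt but differed in start or end. No source used here says whether the authors called intervals on each gene separately. The count of shared intervals rests on identical edges, so what it measures depends on that step, and when any overlap counted, the mean share was 1.30% in place of 0.794%. In 188 of these 195 cases 1 interval lay inside the other, and in 56 they had 1 edge in common. They involved 69 gene pairs, of which 27 also had an identical interval. Of the 41 gene pairs with 2 or more such cases, the same gene had the wider interval each time in 35. The wider gene had the shorter bound span in 16 of these and the longer in 18.

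Identical calls were also counted by how the spans lay. In pairs with equal spans 8, 253 and 64 overlapping calls were identical in replicates 1, 2 and 3, against 0, 3 and 0 with other edges. In nested pairs 12, 79 and 33 were identical, against 6, 50 and 3, and in staggered pairs 1, 10 and 22, against 2, 30 and 2. Nested and staggered pairs differed in replicate 2, 61.2% against 25% identical, but not in replicate 3, 91.7% in both. In replicate 1 they had 66.7% and 33.3%, on few calls. Equal spans partly follow from identical calls, so the first count is a description only. Replicate 2 had the lowest share of identical calls in nested and staggered pairs together, 52.7%, against 61.9% in replicate 1 and 91.7% in replicate 3. The choice of pairs shapes these shares, since a pair entered only through an identical call in some library. Through replicate 3 alone 8 nested and 13 staggered pairs entered, and these could add only calls with other edges to replicate 2. Pairs that never had an identical interval were left out, with 2, 94 and 11 overlapping calls in replicates 1, 2 and 3. In replicate 3, 9 of the 55 identical calls in these pairs came from the single interval of 5 genes. Replicate 2 also had the narrowest intervals, and the part of width in this was not tested.

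**Figure D4:**
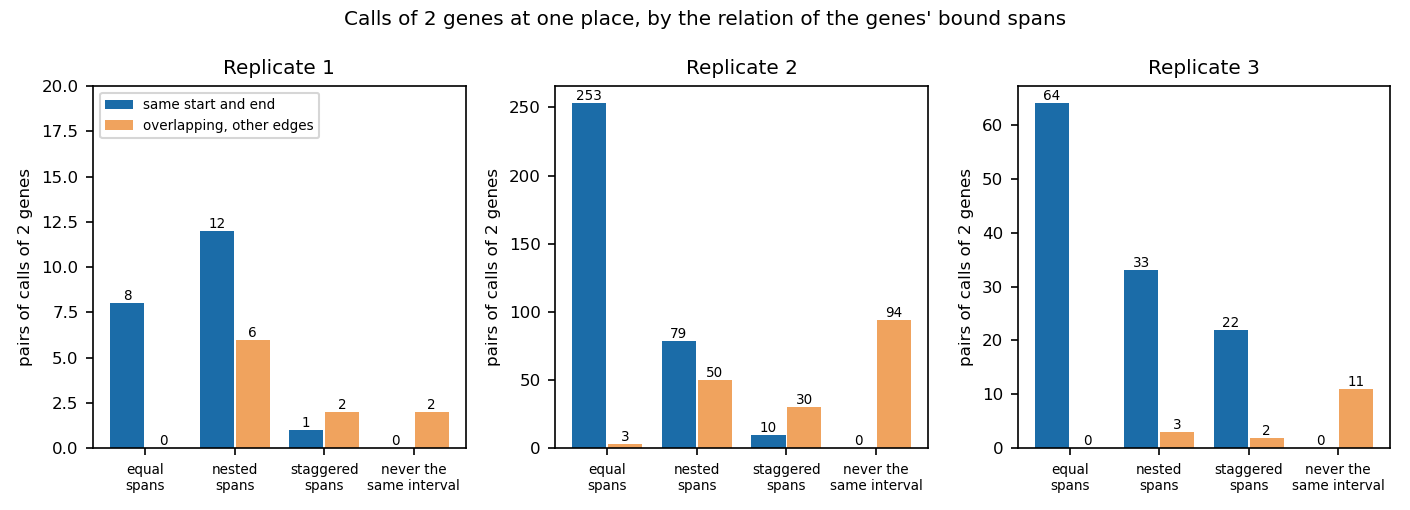
Pairs of calls of 2 genes at the same place (vertical axis, count, scaled separately for each replicate), with the same start and end (blue) or overlapping with other edges (orange), by the relation of the 2 genes' bound spans. The right-hand group in each panel is gene pairs that never had an identical interval. In replicate 2, 80 calls in nested and staggered pairs had other edges, against 8 in replicate 1 and 5 in replicate 3.

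The CG17159 pair shows this within 1 locus. CG17159 and FBgn0039944 had 2 intervals each in replicate 1 and 4 each in replicate 3, and all were identical for both genes. In replicate 2 they had 17 each, of which 1 was identical, at 65288 to 65324 of XHet. Among the others there were 15 overlaps with different edges, and in all 15 the interval of FBgn0039944 lay inside that of CG17159. The span of CG17159 (64580 to 69216) was nested in that of FBgn0039944 (64580 to 75441) only because of 1 interval of FBgn0039944 in replicate 2. CG17162, CG17169 and the antisense gene asRNA:CR43480 overlap the extent of CG17159 in the Release 6 table.

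**Figure D5:**
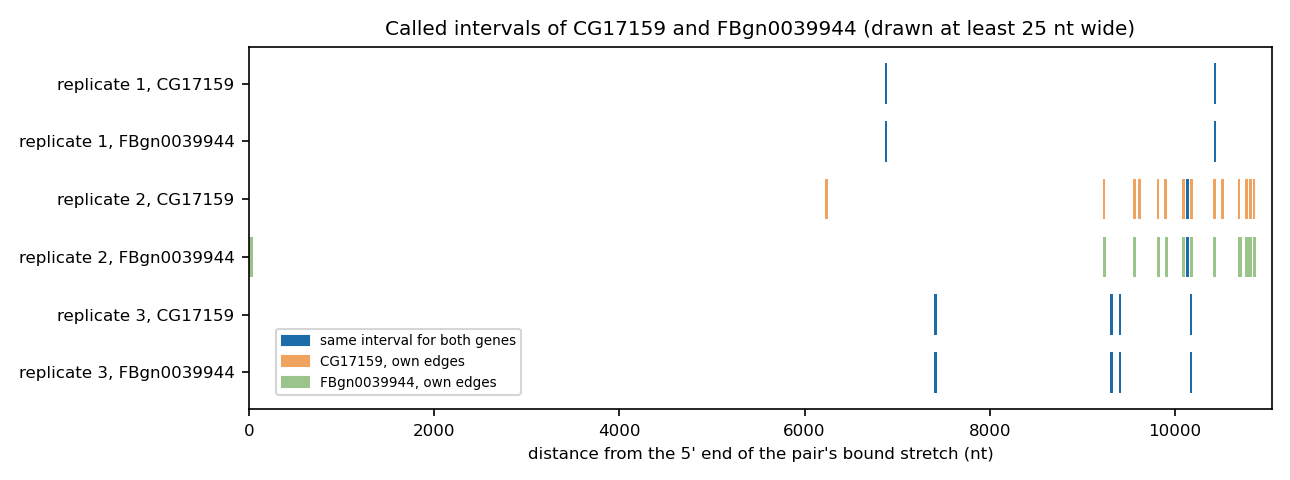
Called intervals of CG17159 and FBgn0039944 in each library, by distance in nt from the 5′ end of the bound stretch of both genes (horizontal axis). Blue marks intervals identical for both genes, and orange and green mark intervals with edges of their own, drawn at least 25 nt wide. The 2 and 4 intervals of replicates 1 and 3 are all blue, and replicate 2 has 1 blue interval per gene.

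FBgn0063485 and FBgn0264605 on 3L had the like in replicate 1. They had 7 and 6 intervals there, none identical, and 6 overlaps with different edges, in each of which the interval of FBgn0264605 lay inside that of FBgn0063485. In replicates 2 and 3 they shared 8 and 6 intervals, which were all those of FBgn0264605. FBgn0002716 and FBgn0260934 shared 1 interval each in replicates 1 and 3 and none in replicate 2, where they had 9 overlaps with different edges. Counting any overlap of 1 nt in place of identity, the number of recurring pairs was 75 in place of 47.

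When the place of a shared interval was also called in another library, the genes were mostly the same. Over the 6 directed comparisons of libraries, shared intervals overlapped an interval of the other library in 113 cases. In 84 cases that library had 1 interval with all the same genes, in 21 it had the same genes through separate intervals, and in 8 it had only some of the genes. In no case was the place assigned to other genes alone. Where gene IDs follow from position and strand, this outcome is largely fixed in advance, so it is not a measure of reproducibility. From replicate 3 to replicate 2 the numbers were 29, 13 and 1 of 43. From replicate 2 to replicate 3 they were 35, 0 and 3 of 38.

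The shared intervals measured 4 to 43 nt in replicate 1 (median 25), 1 to 124 nt in replicate 2 (median 14) and 2 to 64 nt in replicate 3 (median 25). Intervals of 1 gene had medians of 25, 13 and 25 nt and reached 126, 285 and 165 nt, so the widest calls of every library belonged to 1 gene. The mean widths were 23.4, 17.5 and 21.5 nt for shared intervals, against 21.2, 17.9 and 20.03 nt. The mean difference was 1.08 ± 1.39 nt (SD, n = 3), positive in 2 of 3 libraries, and the exact two-sided sign-flip permutation test gave p = 0.5. Widths of exactly 25 nt made up 66.7%, 10.4% and 52.7% of the shared intervals and 51.9%, 8.96% and 47.4% of the others.

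By chromosome, 3L held the most shared intervals, 120 of 458. Its share was 23.8%, 27.8% and 21.8% of them in replicates 1, 2 and 3, against 16.9%, 18.5% and 17.3% of the intervals of 1 gene, which is higher in 3 of 3 libraries (24.5% ± 3.06 against 17.6% ± 0.84, SD, n = 3). This arm was picked after the values were seen and the difference was not tested. 3R held 14.2% ± 4.24 against 20.04% ± 1.19, X 20.7% ± 5.22 against 22.8% ± 1.26, 2R 22.1% ± 10.4 against 17.95% ± 0.81 and 2L 14.0% ± 12.2 against 16.6% ± 0.22. For 2L the values were 0%, 19.3% and 22.7%. XHet held 7 shared intervals, all of the CG17159 pair. None of the 1411 intervals on chromosome 4 was shared, which allows a share of up to 0.213%, and none of the 213 on the mitochondrial genome, which allows up to 1.41%. These limits pool the libraries and take intervals to be independent. Shared intervals cluster in pairs, with up to 29 in 1 pair, so the limits may be too low. Over all libraries and chromosomes 0.889% of intervals were shared.

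For most of these genes the shared intervals were their only ones. Of the 227 genes, 151 (66.5%) had every interval of every library shared with another gene. Within single libraries 21 of 24, 152 of 194 and 81 of 115 genes with a shared interval had no other in replicates 1, 2 and 3. Of the 227, 36 had an interval in every library and 130 in 2 or more. Shared intervals alone put 8 of the 36 and 65 of the 130 in these classes. Over the whole series these classes held 1361 and 3270 of the 6502 bound genes. The genes with shared intervals had a mean of 2.53, 5.32 and 3.11 intervals in replicates 1, 2 and 3, over 43, 223 and 127 bound genes, and the other bound genes had 2.75, 5.69 and 3.58. These means were not tested.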

How the data were processed

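Per the labels, 3 iCLIP libraries of GFP-tagged Aub form 1 group, numbered as in their titles. The authors deposited for each library called intervals with a position, strand, FlyBase gene ID and a score, which is 0 in every row. The submitters' processing notes name build dm3, TopHat2 2.0.13 and CASAVA 1.4. Per the labels, reads carried random molecular barcodes. Not given in the sources used here are the peak caller, its threshold, the annotation and how duplicates were handled. Rows of 1 library with the same position and strand were joined, keeping their gene IDs. Recurrence meant an interval of another library on the same strand within 10 nt. Shares have 95% Wilson intervals, and a count of 0 is given the limit of 3 counts. The joining of rows, the pairing of genes and the 10-nt search were tested with planted gene IDs and neighbours made from the real intervals. The search for overlaps with different edges and the grouping of genes were not part of this test. Tests were exact sign-flip permutation tests over libraries. The 25 pairs ranked first by number of libraries, then by mean share, pairs with a symbol and intervals of 3 or more genes were named, with others singled out for their arrangement after their values were seen. The members and lists were chosen with earlier results of these data known. Sequences were not used here. Scripts ran in Python 3.11.15 with scipy 1.17.1, pandas 2.3.3, matplotlib 3.10.9 and numpy 2.4.6.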

Additional observations from a re-analysis of the deposited data

How the results depend on the processing

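Of 46 alternative values, 35 moved by less than the spread between libraries (for counts, less than 1.5 times) or kept their direction, 10 moved further and 1 reversed. The share of intervals with 2 or more genes (0.794%) became 0.465% for genes having 10 or more intervals and 1.30% when any overlap counted, and lay between 0.720% and 0.927% when 1 library was dropped. The 47 recurring pairs became 6 in all 3 libraries, 20 with at least 2 shared intervals in each library and 75 with any overlap, and between 7 (without replicate 2) and 41 when 1 library was dropped. Requiring more libraries or intervals lowers these counts by construction. Recurrence of positions (41.9%) was 3.21% with an exact 5′ edge, and between 11.2% (without replicate 2) and 31.5% on dropping 1 library, which removes intervals to match. The recurrence difference from intervals of 1 gene (-1.98 points) reversed to 0.035 among intervals of at least the median width; the cause was not tested. Within 50 nt it was -7.23 points. Its extremes on dropping 1 library were -11.3 and -1.91. The nested share (25.6%) was 45.2% over the 31 pairs in which both genes had intervals of their own, taking spans from those alone, which leaves out most equal pairs. On dropping 1 library it lay between 22.6% and 28.6%, and the width difference (1.08 nt) between 0.49 and 1.85 nt. Gene extents of the reference table gave no value, since no pair had both genes listed. Alternatives restricted to intervals of exactly 2 genes or to 1 other library were chosen after seeing the data. No paired analysis was possible because the libraries form a single group. The number of intervals, 21 in replicate 1, limits every share there.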

Other observations

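In 34 of the 129 pairs (26.4%) the FlyBase numbers of the genes differed by 1, and in 25 of these 34 the bound spans were equal. Of the 34, 6 came only from intervals of 3 or more genes. The share among other neighbouring genes was not computed. CG42353 and FBgn0259700, FBgn0026063 and FBgn0026064, and FBgn0064116 and FBgn0064117 are examples.

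Although no interval of chromosome 4 was shared, the gene pair with as many overlapping calls of different edges as the CG17159 pair lay there. FBgn0026869 and FBgn0264618, on its minus strand, had 1, 11 and 3 such overlaps in replicates 1, 2 and 3, and in all 15 the interval of FBgn0264618 lay inside that of FBgn0026869. The bound span of FBgn0264618 was 475 nt and that of FBgn0026869 was 17111 nt. On 2R, FBgn0262102 lay inside FBgn0262103 in the same way in 8 of 8 overlaps, 7 of them in replicate 2. These pairs were picked after their values were seen.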
